A study of Mus musculus with 20 samples.

Results

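The collagen genes of the mouse amygdala were followed over 20 arrays. A gene was included where a probe set carried a single symbol of the form Col, number, a, number, and where a gene had several probe sets the one with the highest mean value stood for it. This gave 44 collagen genes of the 19933 gene symbols on the array, read from 46 probe sets, since Col6a5 and Col6a6 had 2 each. By the protein they encode, 11 were fibrillar, 8 belonged to the basement membrane and 25 to other classes (9 fibril associated, 3 short chain, 6 beaded filament, 4 transmembrane and 3 remaining). The choice used symbols and no measured difference between groups.

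Collagens are the most abundant proteins of connective tissue, built from chains with a repeating glycine motif that wind around each other into a stiff helix. Fibrillar collagens such as types I and III form the tensile fibres of connective tissue, which in the brain lie mainly in the meninges and around larger vessels, whereas type IV collagen forms the sheet under endothelial cells that belongs to the wall of every brain capillary. The other classes decorate fibrils, form hexagonal or beaded networks or sit in the cell membrane, and a few, such as the membrane collagen Col25a1, are made by neurons.

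The study asked how a brief stressor and the genotype of the serotonin transporter 5-HTT, the product of Slc6a4, alter amygdala transcripts. Left and right amygdalae of single male C57BL/6 mice aged 7 months were measured on Affymetrix Mouse Gene 1.0 ST arrays, 5 mice in each of 4 groups. KO stress were 5-HTT knockout mice after 1 min in water of 22 °C, KO con were 5-HTT knockout mice after 1 min in the homecage, and WT stress and WT con were wildtype mice under these same 2 conditions. All mice descended from heterozygous parents, had been kept singly and had passed an elevated plus-maze test before, and the knockout was not restricted to any cell type. The values are log2 signals, in which a difference of 1 corresponds to a fold of 2.00, and since probe sets differ in their affinity no level is compared between genes.

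Slc6a4 (log2 value) lay at 8.10 to 8.38 in KO stress and 8.11 to 8.20 in KO con, against 6.30 to 6.55 in WT stress and 5.82 to 7.82 in WT con. Its signal was thus higher in every array labelled KO than in every array labelled WT, opposite to a loss of transcript, and whether its probes lie inside or outside the disrupted part is not stated. KO and WT therefore name arrays by their labels throughout. Array medians were 6.59 to 6.82 and no 2 arrays were identical. WT stress replicate 1 (median correlation with the other arrays 0.961) and WT con replicate 1 (0.978) correlated least with the rest. Of markers of amygdala neurons all 20 listed genes had a probe set, and their mean deviation stayed between -0.33 and 0.33 on all arrays. In such a mean, opposite shifts of single genes can cancel.

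Over the 20 arrays the collagens varied about as much as other probe sets, with a median SD of 0.19 log2 units for the 44 genes against 0.18 for all 28767 probe sets. A few genes had a far wider spread. Col8a1, a short-chain collagen of vessel walls and of the cornea, had an SD of 0.75, and the beaded-filament genes Col6a1 and Col6a3, whose products assemble into microfibrils at the border of cells and matrix, had 0.70 and 0.69. The pair that encodes type I collagen, Col1a1 and Col1a2, followed with 0.44 and 0.43. At the other end Col17a1, a transmembrane collagen of epithelial anchoring, had an SD of 0.12. A mean log2 value under 6 was found for 4 collagens, namely Col24a1, Col4a6, Col19a1 and Col10a1, where signals lie low on the array and differences are compressed. Other genes named below were not bright either. By mean value, Col28a1 lay at percentile 38.0 of all probe sets, Col22a1 at 39.8, Col9a1 at 46.0 and Col8a1 at 49.6. Col6a3 (56.4), Col11a2 (56.9) and Col1a2 (67.5) lay above the middle.

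**Figure D1:**
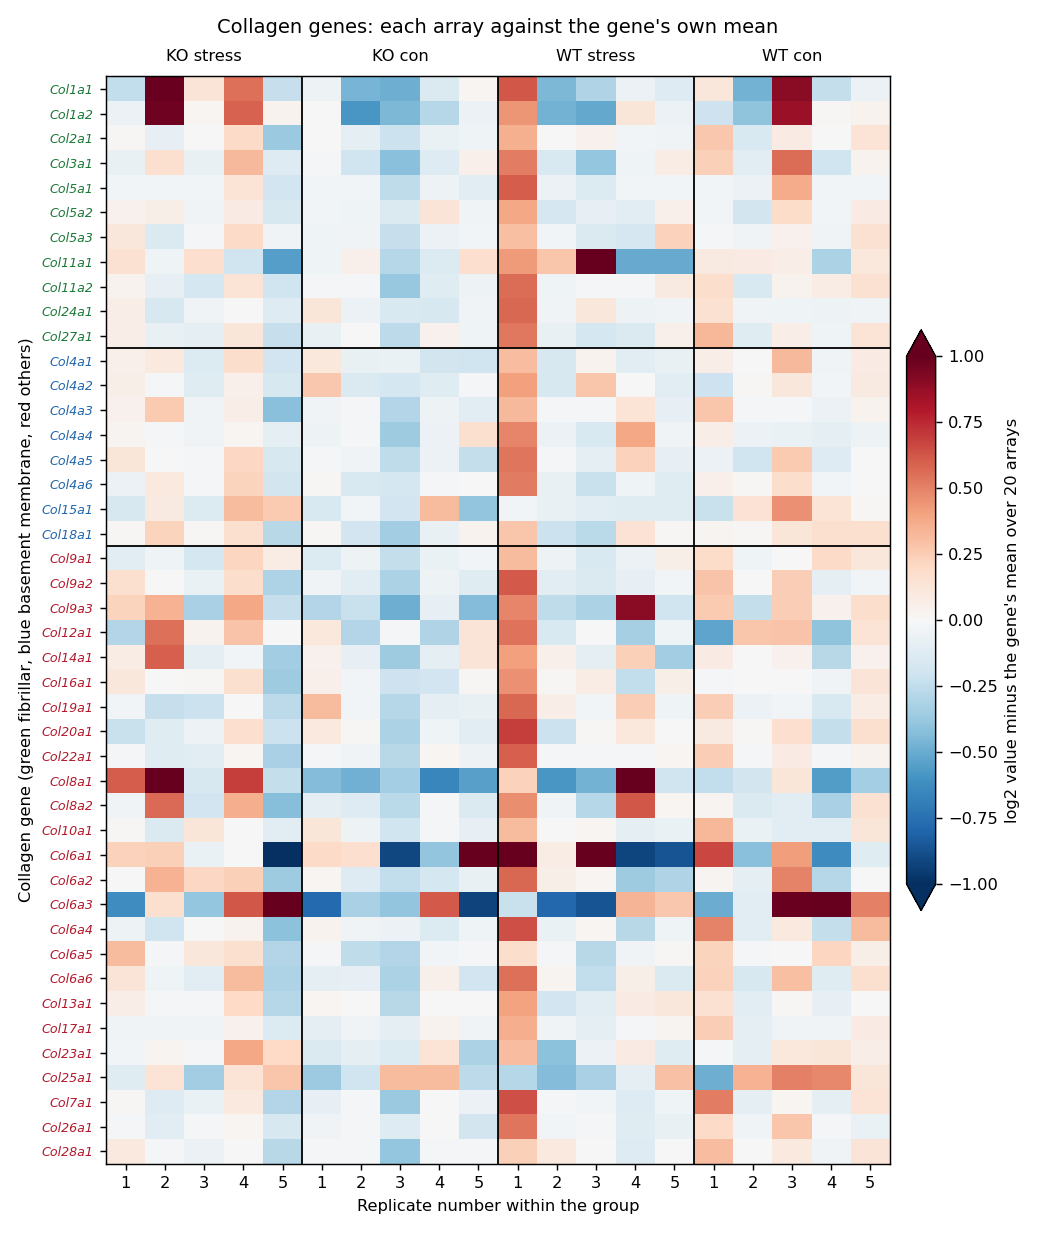
Log2 value of each of the 44 collagen genes (rows, by class) on each of the 20 arrays (columns, by group and replicate number), as the difference from the gene's own mean over all arrays; colours saturate at 1 and -1. WT stress replicate 1 was above the mean in 41 of 44 rows and KO con replicate 3 in 1 of 44, and Col8a1, Col6a1 and Col6a3 show the largest single deviations.

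In the map of deviations by array, single arrays stood out over most of the family. WT stress replicate 1 lay above the gene's mean for 41 of 44 collagens and held the highest value of 27 (61.4%), where it held the highest value of 29% of all probe sets and the lowest of 18%, but the lowest of 0 collagens. KO con replicate 3 lay above the mean for 1 collagen of 44 and held the lowest value of 19 (43.2%), against 8.85% of all probe sets. KO stress replicate 5 held the lowest value of 11 collagens (25%), against 7.24% of all probe sets. The results below are given with and without these arrays where they decide a count.

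The 5′ flanks of the pair of collagens that passed the study's criterion in KO mice (below, Col1a2 and Col8a1) are shown because these collagens differed most clearly after the stressor. They are the 250 bases before the annotated start in RefSeq (GRCm38.p6), 5′ to 3′ on the gene's strand, chr6:4505368-4505617 on the plus strand for Col1a2 and chr16:57754738-57754987 on the minus strand for Col8a1; no other annotated gene overlaps either window. Capitals mark the letters CCAAT, a box bound by the factor NF-Y, whose first base in Col1a2 lies 109 bases before the start; neither CCAAT nor its reverse ATTGG is in the Col8a1 window.
Col1a2: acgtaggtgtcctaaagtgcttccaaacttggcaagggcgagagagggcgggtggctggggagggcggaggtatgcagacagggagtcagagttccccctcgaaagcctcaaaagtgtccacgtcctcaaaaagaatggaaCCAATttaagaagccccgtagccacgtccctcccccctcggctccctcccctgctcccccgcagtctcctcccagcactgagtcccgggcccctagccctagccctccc
Col8a1: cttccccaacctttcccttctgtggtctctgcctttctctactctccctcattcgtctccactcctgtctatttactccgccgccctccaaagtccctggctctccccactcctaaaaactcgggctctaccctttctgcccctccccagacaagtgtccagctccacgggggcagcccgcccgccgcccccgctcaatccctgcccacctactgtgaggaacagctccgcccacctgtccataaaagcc
Of the 44 genes 35 had such a window, 38 windows in all. CCAAT or ATTGG was in 34.2% of them and in 33.8% of all 32851 windows, TATAAA or TTTATA in 13.2% and 12.4%, and GGGCGG or CCGCCC, the GC box, in 57.9% and 32.7%. Each motif was searched on both strands by itself, also where it shares bases with another. These are descriptions of letters in a window and say nothing of factor binding.

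After the stressor, KO mice had higher signals for most collagens, by small amounts. In KO stress vs. con, 38 of 44 collagens had a difference above 0 (86.4%), where 48.5% of all probe sets did, and the median difference was 0.07 log2 units against -0.0016 over all probe sets. Of the fibrillar genes 10 of 11 were above 0, of the basement membrane genes 8 of 8 and of the others 20 of 25. With quantile normalisation 31 of 44 were above 0 (median 0.06), and with each array centred on its median 29 of 44 (median 0.04, where the median of all probe sets was -0.04). Col1a2 and Col8a1 were the 2 collagens of 44 that passed the study's criterion (unadjusted p under 0.05 and more than a 1.5-fold difference), which 0.136% of all probe sets passed in this direction. The study lists both, from these same arrays, so that they are no independent evidence. With the Benjamini-Hochberg adjustment over all probe sets no collagen passed 0.05 in limma (2 passed at the unadjusted p), and 0% of all probe sets did. In the methods' t-test, 3 collagens had an unadjusted p under 0.05, as had 2.18% of all probe sets, and 0 an adjusted one.

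Col1a2 (gene ID 12843, chromosome 6, 4505618 to 4541543) encodes the second chain of type I collagen. It had log2 values of 7.71, 8.74, 7.78, 8.35 and 7.79 in KO stress arrays, against 7.76, 7.18, 7.31, 7.48 and 7.71 in KO con arrays. The values of KO stress replicates 2 and 4 stood out, and the groups overlapped. The difference was 0.59 ± 0.24 (SE), 1.5-fold, with p = 0.0270 in limma (adjusted p = 1.00) and p = 0.0238 in the exact two-sided permutation test of 5 against 5 arrays, whose smallest possible p is 0.00794. Beside this exact test, the fit gave 0.42 without KO stress replicate 2 (limma p = 0.0939), and the limma p also exceeded 0.05 without KO stress replicate 4 (0.0642), KO con replicate 2 (0.0664) or KO con replicate 3 (0.0555). With quantile normalisation or centring its fold was below that of the criterion, which Col8a1 alone then passed. Its partner Col1a1 differed by 0.47 ± 0.26 (limma p = 0.0952, exact permutation p = 0.119), and KO stress replicate 2 held the highest value of both genes over the 20 arrays.

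Col8a1 (gene ID 12837, chromosome 16, 57624256 to 57754737) had the largest difference of the family. It had log2 values of 7.30, 8.37, 6.53, 7.38 and 6.46 in KO stress arrays, against 6.26, 6.21, 6.35, 6.04 and 6.15 in KO con arrays. Every KO stress array lay above every KO con array, which held for 1 of 44 collagens and for 0.195% of all probe sets. The means were 7.21 ± 0.78 and 6.20 ± 0.12 (SD, n = 5 each), a difference of 1.01 ± 0.41 (SE), 2.01-fold, with p = 0.0250 in limma (adjusted p = 1.00) and p = 0.00794 in the exact permutation test, the smallest it can give. Without KO stress replicate 2 the difference was 0.71, no longer past the unadjusted threshold in limma, and then 0 collagens passed the criterion. That number was 1 without KO stress replicate 4 or KO con replicate 2, 3 or 4, and 3 without KO stress replicate 1. Col8a1 stood at 6.93, 6.11, 6.22, 8.81 and 6.49 in WT stress arrays, against 6.45, 6.51, 6.82, 6.13 and 6.35 in WT con arrays. A single array, WT stress replicate 4, was far above all others there, the groups overlapped, and the difference of 0.46 ± 0.41 had a limma p of 0.277. Without that array it was -0.01.

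In bulk tissue a change in the amount of a cell type and a change in RNA per cell cannot be told apart, and most markers of meninges and choroid plexus were also above 0 in this comparison. Of 27 measured markers of meningeal fibroblasts, such as the proteoglycan gene Dcn and the fibronectin gene Fn1, 26 were above 0 in KO stress vs. con, with a median of 0.57 and 5 at an unadjusted limma p under 0.05, where 0.827% of all probe sets passed on the higher side. Of 15 choroid plexus markers all 15 were above 0 (median 0.47), where 48.5% of all probe sets were. Of 15 further choroid plexus genes that the study lists from these arrays all 15 were above 0 (median 1.07), as were all 6 meningeal genes from that source (median 0.90). The study listed these 15 and 6 genes for a rise in this same comparison. Their counts and medians were therefore set by that choice and are no further evidence. The other marker lists were chosen with earlier results of these data known, so that their counts are no independent evidence either. Of 17 endothelial markers 14 were above 0 (median 0.11), of 14 pericyte and smooth muscle markers 12 (median 0.13), of 20 amygdala neuron markers 9 (median -0.01) and of 10 markers of oligodendrocyte precursors 6 (median 0.01). The mean deviation of the meningeal list was -0.23, 1.25, 0.21, 0.71 and -0.12 in KO stress arrays, against 0.11, -0.42, -0.25, -0.28 and -0.13 in KO con arrays. KO stress replicates 2 and 4, the highest arrays for Col1a2, were also the highest here. The part of these markers in the collagen differences was not tested.

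No other collagen passed the unadjusted limma threshold between KO stress and KO con. Col3a1, which encodes the chain of type III collagen, differed by 0.18 ± 0.16, Col6a3 by 0.56 ± 0.39 and Col9a3, a chain of the fibril-associated type IX, by 0.39 ± 0.21 (SE each). Below 0 were Col6a1, Col19a1, Col6a4, Col11a1, Col22a1 and Col20a1, with differences between -0.16 and -0.02. Leaving out KO con replicate 3, the array with the lowest collagen signals, left 26 of 44 genes above 0, and leaving out KO stress replicate 5 gave 41.

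**Figure D2:**
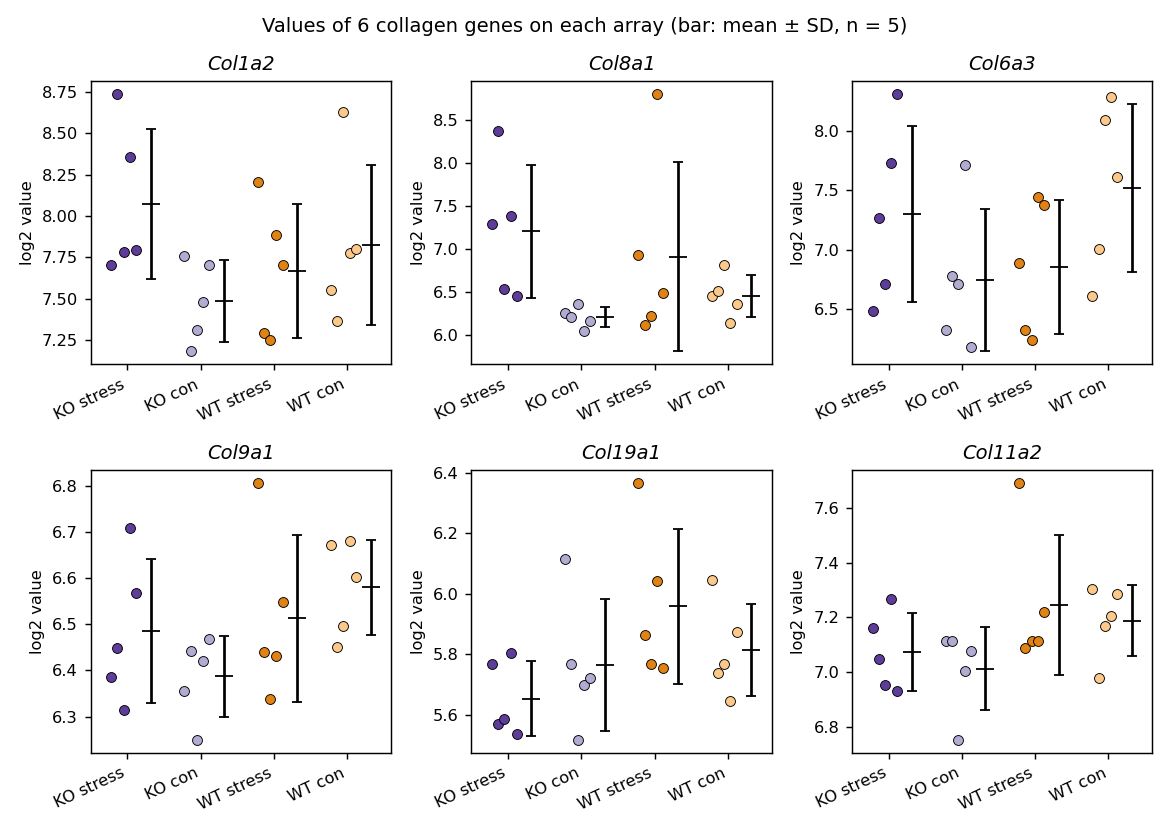
Log2 values (vertical axes) of 6 collagen genes on each array, by group, with the mean ± SD of 5 arrays beside the points. Col8a1 of KO stress lies above KO con on every array, 1 WT stress array reaches 8.81, and the groups of the other 5 genes overlap.

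In wildtype mice the same stressor gave no collagen an unadjusted p under 0.05. In WT stress vs. con 23 of 44 collagens were above 0 (52.3%) against 62.8% of all probe sets, with medians of 0.01 and 0.03, and 0 passed an unadjusted limma p under 0.05 in either direction, where 2.99% of all probe sets did on the higher and 0.556% on the lower side. The methods' t-test also gave 0 at its unadjusted p, which 1.8% of all probe sets passed. The counts were 6 of 11 fibrillar, 4 of 8 basement membrane and 13 of 25 other genes. They rested on 1 array: without WT stress replicate 1 the count above 0 was 8 and the median -0.10. Col6a3 had the lowest difference (-0.67 ± 0.39) and passed the criterion with the replicate number as a block over all 20 arrays, with array weights and without WT con replicate 1, but not with the block in the WT groups alone, followed by the neuronal collagen Col25a1 (-0.36 ± 0.19), and Col8a1 had the highest. Col1a2 stood at 8.20, 7.29, 7.25, 7.88 and 7.71 in WT stress arrays, against 7.55, 7.36, 8.63, 7.77 and 7.80 in WT con arrays, where replicate 1 of WT stress and replicate 3 of WT con were high. The meningeal list (15 of 27 above 0, median 0.01) was highest in these same arrays, with 0.27, -0.29, -0.30, 0.08 and -0.17 in WT stress, against -0.40, -0.29, 1.05, -0.42 and -0.36 in WT con. Of 20 amygdala neuron markers 13 were above 0 (median 0.08). At an unadjusted limma p under 0.05, 2 of them were higher and 3 lower, where 2.99% and 0.556% of all probe sets were.

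Whether stress acted differently in the genotypes was tested by the interaction, the KO difference minus the WT difference. It was above 0 for 32 of 44 collagens (72.7%), against 40.3% of all probe sets. Col1a2 and Col6a3 passed the study's criterion, which 0.236% of all probe sets passed on this side. The interaction was 0.74 ± 0.34 for Col1a2 and 1.22 ± 0.56 for Col6a3, each at an unadjusted limma p under 0.05, with an adjusted p of 1.00 for both. Leaving out single arrays moved the number of collagens at the criterion between 0 and 3, and the limma p exceeded 0.05 in 11 of the 20 fits for Col1a2 (lowest value 0.54, without WT con replicate 3) and in 13 of 20 for Col6a3 (lowest value 0.97, without KO stress replicate 5). With the replicate number as a block over all 20 arrays, or with quantile normalisation, Col1a2 no longer passed the unadjusted threshold and Col6a3 did. Without both WT stress replicate 1 and KO con replicate 3, an omission chosen after seeing the data, Col1a2 passed it and Col6a3 did not. The interaction of Col8a1 was 0.54 ± 0.58 and did not pass the unadjusted threshold. With all arrays its larger difference in KO mice is thus not shown to differ from that in WT mice. This depended on WT stress replicate 4, its highest array. Without that array the interaction of Col8a1 was 1.02 and passed the criterion, which it did in no other fit. Its stress KO vs. WT difference was then 0.77, also past the criterion, against 0.30 with all arrays. Of 27 meningeal markers 26 had an interaction above 0 (median 0.49), of 15 choroid plexus markers 9 (median 0.22), and their part in these values was not tested.

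Col6a3 (gene ID 12835, chromosome 1, 90766860 to 90844001) encodes the largest chain of type VI collagen. It had log2 values of 6.48, 7.26, 6.71, 7.73 and 8.31 in KO stress arrays, against 6.32, 6.78, 6.71, 7.72 and 6.18 in KO con arrays. Col6a3 stood at 6.88, 6.32, 6.24, 7.45 and 7.38 in WT stress arrays, against 6.61, 7.0, 8.09, 8.29 and 7.61 in WT con arrays. Both pairs of groups overlapped, and the highest values occurred in KO stress replicate 5 and in WT con replicates 3 and 4. The differences ran in opposite directions, 0.56 ± 0.39 in KO mice (exact permutation p = 0.222) and -0.67 ± 0.39 in WT mice (exact permutation p = 0.159). Neither of these p-values was under 0.05.

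Averaged over genotypes, stress vs. con was above 0 for 36 of 44 collagens against 60.6% of all probe sets. Col8a1 alone passed the criterion (0.73 ± 0.29, an unadjusted limma p under 0.05, adjusted p = 1.00), which 0.0556% of all probe sets passed, and without WT stress replicate 4 its difference was 0.50, below the fold of the criterion. The second short-chain gene of type VIII, Col8a2, differed by 0.21 ± 0.13 and did not pass the unadjusted threshold. Without WT stress replicate 1 the count above 0 was 20 of 44. All 27 meningeal (median 0.24) and all 15 choroid plexus markers (median 0.36) were above 0, and WT stress replicate 4, the highest array for Col8a1, was the highest for the choroid plexus markers. Their part was not tested.

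Between the genotypes without stress, most collagen signals were lower in the arrays labelled KO, by small amounts. In con KO vs. WT 43 of 44 collagens had a difference below 0 (97.7%), where 49.8% of all probe sets did, and the median was -0.14 against 0.00 over all probe sets. The count was 11 of 11 for fibrillar, 8 of 8 for basement membrane and 24 of 25 for other genes, and Col6a1 was the exception (0.04 ± 0.45). Few single genes passed a threshold: 2 of 44 passed an unadjusted limma p under 0.05 on the lower side (4.55%), where 1.67% of all probe sets did. The criterion, which 0.0243% of all probe sets passed on this side, was passed by 0, as was the adjusted threshold in limma (0% of all probe sets). The methods' t-test gave 4 at its unadjusted p, which 6.22% of all probe sets passed, and 0 after adjustment. Without KO con replicate 3 the count below 0 was 36 and the median -0.10. These KO con arrays are the same that entered KO stress vs. con, so that the high count there and the low count here share them.

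Col9a1 (gene ID 12839, chromosome 1, 24177589 to 24252738) encodes a chain of type IX collagen, which coats fibrils of type II in cartilage. It had log2 values of 6.36, 6.44, 6.25, 6.42 and 6.47 in KO con arrays, against 6.67, 6.45, 6.50, 6.68 and 6.60 in WT con arrays. The highest KO con array lay just above the lowest WT con array, and otherwise the groups were apart. The difference was -0.19 ± 0.09 (limma p = 0.0383, adjusted p = 0.929; exact permutation p = 0.0159). Col28a1 (gene ID 213945, chromosome 6, 7997100 to 8193709), a collagen described around the glia of peripheral nerves, had 6.06, 6.07, 5.70, 6.06 and 6.06 in KO con arrays, against 6.39, 6.08, 6.18, 6.04 and 6.21 in WT con arrays. KO con replicate 3 was far below the others, and without it the difference of -0.19 ± 0.09 (limma p = 0.0498, exact permutation p = 0.0873) was -0.12 with a limma p of 0.178. The limma p exceeded 0.05 in 10 of 20 fits that left out an array for Col28a1. For Col9a1 it did so in 5 of 20, and the value of Col9a1 without KO con replicate 3 was -0.16. Its call was also lost with quantile normalisation, centring or the filter on dim probe sets. That of Col28a1 was lost in these fits too, in the methods' t-test, in limma on both groups alone, with robust eBayes, with array weights, without both WT arrays of replicate 1, and in the omission chosen after seeing the data.

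The genes with the largest differences between KO con and WT con did not pass the unadjusted threshold, although Col6a3 passed the criterion with the replicate block over all 20 arrays, with array weights, without both WT arrays of replicate 1, and without WT con replicate 1, WT con replicate 2, KO stress replicate 5 or KO con replicate 4 alone. Col6a3 differed by -0.78 ± 0.39 (limma p = 0.0639, exact permutation p = 0.0952), Col9a3 by -0.40 ± 0.21 and Col1a2 by -0.34 ± 0.24. Of 27 meningeal markers 6 were above 0 (median -0.08), of 17 endothelial markers 9 (median 0.01), of 15 choroid plexus markers 5 (median -0.09) and of 14 pericyte and smooth muscle markers 4 (median -0.06). Among all probe sets 50.1% were above 0. Of the 15 choroid plexus and 6 meningeal genes that the study lists from these arrays, 0 were above 0 (medians -0.34 and -0.23). The study listed them for lower values in KO con than in KO stress, and the same KO con arrays enter here. Differences below 0 were therefore favoured by that choice. Of 20 amygdala neuron markers 15 were above 0 (median 0.10). The part of these markers in the collagen differences was not tested.

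**Figure D3:**
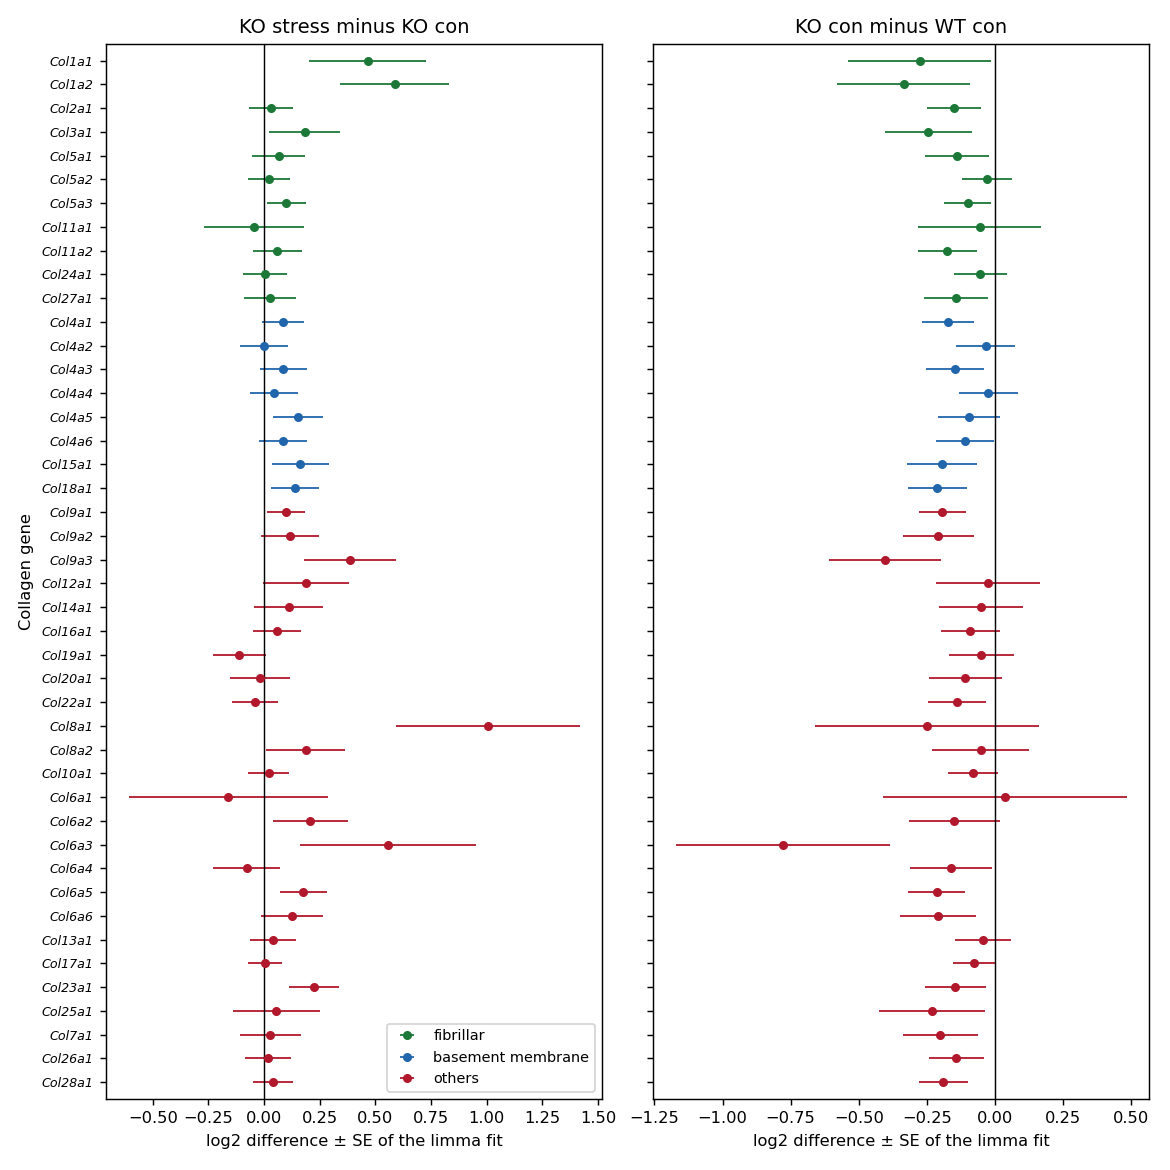
Log2 differences (horizontal axes, points, with the SE of the limma fit as bars) of the 44 collagen genes, for KO stress minus KO con on the left and KO con minus WT con on the right; colours give the class. On the left 38 of 44 points lie above 0, with Col8a1 the farthest at 1.01, and on the right 43 of 44 lie below 0.

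Under stress the genotypes differed less uniformly. In stress KO vs. WT 30 of 44 collagens were below 0 (68.2%), against 58.6% of all probe sets, with medians of -0.07 and -0.03. This count turned without WT stress replicate 1, when 15 of 44 were below 0 and the median was 0.04. On the lower side 2 of 44 passed an unadjusted limma p under 0.05 (4.55%), where 6.23% of all probe sets did, and 0 passed the criterion, which 0.421% of all probe sets passed, or the adjusted threshold (0.00348%) in limma. The methods' t-test gave 1 at its unadjusted p, which 4.71% of all probe sets passed. Col19a1 (gene ID 12823, chromosome 1, 24257683 to 24587922), a fibril-associated collagen that interneurons make in the mouse brain, had 5.77, 5.57, 5.59, 5.80 and 5.53 in KO stress arrays, against 6.37, 5.87, 5.77, 6.04 and 5.75 in WT stress arrays. The difference was -0.31 ± 0.12 (limma p = 0.0195, adjusted p = 0.530; exact permutation p = 0.0476), and without WT stress replicate 1, its highest array, it was -0.20 (limma p = 0.0720). Col22a1 (gene ID 69700, chromosome 15, 71795795 to 72150979), a collagen of tissue junctions, had 6.15, 6.05, 6.05, 6.18 and 5.85 in KO stress arrays, against 6.77, 6.15, 6.15, 6.15 and 6.18 in WT stress arrays. The WT stress arrays other than replicate 1 lay close together, and without replicate 1 the difference of -0.22 ± 0.11 (limma p = 0.0472, exact permutation p = 0.0873) was -0.10. Its limma p exceeded 0.05 in 12 of 20 fits that left out an array, and its call was also lost in the methods' t-test, in limma on both groups alone, with quantile normalisation, centring, robust eBayes, array weights or the filter on dim probe sets. Without both WT arrays of replicate 1, or in the omission chosen after seeing the data, the calls of Col22a1 and Col19a1 were lost. Of 27 meningeal markers 26 were above 0 here (median 0.40), where 41.3% of all probe sets were. The list holds Foxd1, which the study lists as higher in KO in this same comparison. Of the fibrillar collagens 3 were above 0, Col1a1 (0.30 ± 0.26), Col1a2 (0.41 ± 0.24) and Col3a1 (0.04 ± 0.16), and 8 were below. Most collagens were below 0 only with WT stress replicate 1 included. The part of these markers in the collagen differences was not tested.

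Averaged over both conditions, KO vs. WT was below 0 for 39 of 44 collagens (88.6%), against 55.1% of all probe sets, with medians of -0.09 and -0.01. Without WT stress replicate 1 the count was 34. All 8 basement membrane genes were below 0. On the lower side 4 of 44 passed an unadjusted limma p under 0.05 (9.09%), against 7.34% of all probe sets: Col22a1 (-0.18 ± 0.07), Col11a2 (-0.17 ± 0.08), Col28a1 (-0.14 ± 0.06) and Col19a1 (-0.18 ± 0.08). The smallest adjusted p was 0.412, which these 4 share, and 0.00348% of all probe sets passed the adjusted threshold. Their unadjusted p exceeded 0.05 in 3 of 20 fits that left out an array for Col22a1, 8 for Col11a2, 8 for Col28a1 and 13 for Col19a1. With quantile normalisation, centring, array weights or either omission of a pair of arrays Col11a2, Col28a1 and Col19a1 lost their calls and Col22a1 did not, and Col28a1 also lost its call with the filter on dim probe sets. Col11a2 (gene ID 12815, chromosome 17, 34038919 to 34066684), a minor fibrillar chain that sets the diameter of cartilage fibrils, had 7.16, 7.05, 6.96, 7.27 and 6.93 in KO stress and 7.11, 7.11, 6.75, 7.01 and 7.08 in KO con arrays, against 7.69, 7.09, 7.11, 7.11 and 7.22 in WT stress and 7.30, 6.98, 7.17, 7.20 and 7.29 in WT con arrays. The highest value was that of WT stress replicate 1 and the lowest that of KO con replicate 3, and without either the difference was -0.12 or -0.14, not past the unadjusted limma threshold in either fit. Of Col28a1 and Col22a1 the other groups were 6.18, 6.06, 6.02, 6.09 and 5.81 for Col28a1 in KO stress, against 6.32, 6.18, 6.09, 5.95 and 6.08 in WT stress, and 6.16, 6.13, 5.89, 6.19 and 6.12 for Col22a1 in KO con, against 6.41, 6.16, 6.25, 6.15 and 6.20 in WT con. Col19a1 had 6.12, 5.77, 5.52, 5.70 and 5.72 in KO con, against 6.05, 5.74, 5.77, 5.65 and 5.87 in WT con, and these groups overlapped. Col9a1 had 6.39, 6.45, 6.32, 6.71 and 6.57 in KO stress, against 6.81, 6.44, 6.34, 6.43 and 6.55 in WT stress, again with overlap.

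The type IV genes are arranged head to head in pairs that share a bidirectional promoter, a layout known for this family. In GRCm38.p6 Col4a1 and Col4a2 (chromosome 8, 11198423 to 11312889 and 11312805 to 11449287) overlap by 85 bases, Col4a3 and Col4a4 (chromosome 1, 82586921 to 82722059 and 82448419 to 82587034) by 114, and 1274 bases lie between Col4a5 and Col4a6 (chromosome X, 141475370 to 141689236 and 141165403 to 141474095). Col4a1 and Col4a2 encode the chains of the common capillary basement membrane, and the other pairs encode chains known best from kidney, eye, ear and skin. No type IV gene had an unadjusted limma p under 0.05 in any of the 7 comparisons.

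Col4a1 had log2 values of 7.11, 7.16, 6.92, 7.23 and 6.87 in KO stress arrays, against 7.16, 6.98, 7.0, 6.88 and 6.86 in KO con arrays. Col4a1 stood at 7.37, 6.90, 7.09, 6.94 and 6.98 in WT stress arrays, against 7.12, 7.07, 7.38, 7.02 and 7.14 in WT con arrays. Col4a2 had 7.36, 7.28, 7.19, 7.35 and 7.14 in KO stress arrays, against 7.57, 7.16, 7.13, 7.18 and 7.28 in KO con arrays. The groups overlapped for both genes, with differences of 0.08 ± 0.10 and 0.00 ± 0.11 in KO stress vs. con. Col4a2 had 7.71, 7.14, 7.58, 7.30 and 7.19 in WT stress arrays, against 7.10, 7.31, 7.41, 7.28 and 7.39 in WT con arrays. The smallest p of this pair over the 7 comparisons was that of Col4a1 in con KO vs. WT, -0.17 ± 0.10 (limma p = 0.0900, exact permutation p = 0.0635), beside -0.03 ± 0.11 for Col4a2.

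Col4a3 had log2 values of 6.11, 6.33, 6.04, 6.14 and 5.65 in KO stress arrays, against 6.03, 6.06, 5.78, 6.02 and 5.96 in KO con arrays. Col4a3 stood at 6.39, 6.05, 6.06, 6.21 and 5.99 in WT stress arrays, against 6.35, 6.06, 6.06, 6.01 and 6.10 in WT con arrays. KO stress replicate 5 was the lowest array and WT stress replicate 1 the highest. Col4a4 had log2 values of 6.39, 6.34, 6.33, 6.38 and 6.26 in KO stress arrays, against 6.31, 6.34, 6.01, 6.30 and 6.52 in KO con arrays. Col4a4 had 6.85, 6.30, 6.21, 6.75 and 6.33 in WT stress arrays, against 6.43, 6.31, 6.30, 6.27 and 6.31 in WT con arrays. WT stress replicates 1 and 4 were high for Col4a4, with a WT stress vs. con difference of 0.17 ± 0.11 beside 0.02 ± 0.11 for Col4a3. Col4a5 had log2 values of 6.31, 6.20, 6.18, 6.40 and 6.03 in KO stress arrays, against 6.18, 6.15, 5.94, 6.13 and 5.95 in KO con arrays. Col4a5 stood at 6.72, 6.17, 6.09, 6.42 and 6.10 in WT stress arrays, against 6.13, 5.99, 6.45, 6.06 and 6.19 in WT con arrays. Col4a5 differed by 0.15 ± 0.11 in KO stress vs. con and by 0.14 ± 0.11 in WT stress vs. con. Col4a6 had log2 values of 5.71, 5.87, 5.75, 5.99 and 5.58 in KO stress arrays, against 5.78, 5.61, 5.59, 5.75 and 5.76 in KO con arrays. Col4a6 had 6.28, 5.69, 5.55, 5.72 and 5.65 in WT stress arrays, against 5.82, 5.78, 5.94, 5.74 and 5.76 in WT con arrays. Col4a6 differed by 0.08 ± 0.11 and -0.03 ± 0.11 in these comparisons, and WT stress replicate 1 again held the highest value. The other basement membrane genes, Col15a1 and Col18a1, whose products carry large sugar chains and release anti-angiogenic fragments, differed by 0.16 ± 0.13 and 0.14 ± 0.11 in KO stress vs. con.

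Neighbouring collagen genes were not limited to type IV. The 44 genes lay on 15 chromosomes, and 18 of them had another collagen within 1 Mb, among them Col3a1 beside Col5a2 and Col9a1 beside Col19a1 on chromosome 1, Col6a1 beside Col6a2 on chromosome 10 and Col6a4, Col6a5 and Col6a6 on chromosome 9. Col9a1 and Col19a1, 4944 bases apart, both had an unadjusted p under 0.05, but in different comparisons, with -0.19 and -0.05 in con KO vs. WT and -0.03 and -0.31 in stress KO vs. WT. The collagens on the chromosome of the targeted gene, Col1a1 and Col23a1 on chromosome 11, lay 17.9 and 25.41 Mb from Slc6a4.

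Genes whose products build, bind or degrade collagen were read from the same fit. Of 27 measured genes for hydroxylation, folding, cleavage and cross-linking of collagen chains, 23 were above 0 in KO stress vs. con (where 48.5% of all probe sets were; median 0.04), and 2 passed an unadjusted limma p under 0.05 on the higher side (where 0.827% of all probe sets did). Pcolce, which enhances the cleavage of procollagen, had log2 values of 7.45, 9.29, 7.26, 8.29 and 7.13 in KO stress arrays, against 7.44, 6.65, 6.81, 6.86 and 6.90 in KO con arrays. Its difference was 0.95 ± 0.43 (limma p = 0.0384, exact permutation p = 0.0238). Loxl1, a cross-linking amine oxidase, had 7.01, 7.38, 6.80, 7.23 and 6.69 in KO stress arrays, against 6.68, 6.70, 6.57, 6.60 and 6.59 in KO con arrays, a difference of 0.39 ± 0.19 (limma p = 0.0491, exact permutation p = 0.0159). Replicate 2 was the highest KO stress array for both, as for Col1a2 and Col8a1. WT stress replicate 4 reached 8.99 for Pcolce and 7.82 for Loxl1, with the other WT stress arrays at 6.88 to 7.91 and 6.55 to 6.83. WT con arrays lay at 6.65 to 8.14 and 6.50 to 6.93. In WT stress vs. con the exact permutation p was 0.452 for Pcolce and 0.325 for Loxl1. Fits that left out an array were not run for partner genes.

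Of 10 measured collagen receptors all 10 were above 0 in KO stress vs. con (median 0.12), where 48.5% of all probe sets were, and 1 passed an unadjusted limma p under 0.05 on the higher side (0.827% of all probe sets). Mrc2, which takes up collagen fragments into cells, had 6.39, 7.26, 6.77, 7.06 and 6.38 in KO stress arrays, against 6.60, 6.19, 6.27, 6.34 and 6.43 in KO con arrays (0.40 ± 0.17, limma p = 0.0328, exact permutation p = 0.0794). Adgrg1, which binds type III collagen in the developing cortex, had 9.42, 9.56, 9.69, 9.40 and 9.38 in KO stress arrays, against 8.40, 9.42, 9.46, 8.88 and 9.24 in WT stress arrays (0.41 ± 0.16, limma p = 0.0211, exact permutation p = 0.0794). The groups overlapped, and the lowest value was that of WT stress replicate 1, the array with the highest collagen signals. The counts for the receptors in con KO vs. WT and in WT stress vs. con were 2 and 6 of 10 above 0, where 50.1% and 62.8% of all probe sets were.

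Of 11 proteases and inhibitors that break down collagen or restrain this, 9 were above 0 in KO stress vs. con (median 0.11), where 48.5% of all probe sets were, with 0 at an unadjusted limma p under 0.05. In stress KO vs. WT 2 passed this p on the higher and 1 on the lower side, where 3.05% and 6.23% of all probe sets did. The inhibitor gene Timp2 had 10.86, 11.09, 11.14, 11.01 and 11.01 in KO stress arrays, against 9.95, 11.05, 10.90, 10.35 and 10.64 in WT stress arrays (0.45 ± 0.17, limma p = 0.0191, exact permutation p = 0.0556), and the membrane protease gene Mmp14 had 8.38, 8.76, 8.31, 8.26 and 8.55 in KO stress arrays, against 7.36, 7.95, 7.77, 8.54 and 8.48 in WT stress arrays (0.43 ± 0.18, limma p = 0.0287, exact permutation p = 0.111). The groups overlapped for both genes, and WT stress replicate 1 was the lowest array of each. The collagenase gene Mmp13 was lower by a small amount near the bottom of the scale (-0.13 ± 0.06, limma p = 0.0407, exact permutation p = 0.159), and Crtap, which takes part in prolyl hydroxylation, was higher (0.36 ± 0.15, limma p = 0.0327, exact permutation p = 0.0952).

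Another 14 basement membrane genes, such as laminin and nidogen genes, build the sheet together with type IV collagen. All 14 were above 0 in KO stress vs. con (median 0.19), where 48.5% of all probe sets were. In con KO vs. WT 1 was above 0 (median -0.12), where 50.1% of all probe sets were. In WT stress vs. con 10 were above 0 (median 0.03), close to all probe sets (62.8%, median 0.03). None of the 14 genes passed an unadjusted limma p under 0.05 in these comparisons. The mean deviation of these genes was highest in KO stress replicate 2 (0.39) and WT con replicate 3 (0.35). That of the basement membrane collagens was highest in WT stress replicate 1 (0.35).

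The fibrillar collagens gave mean deviations of 0.01, 0.14, -0.01, 0.19 and -0.20 in KO stress arrays, against -0.02, -0.13, -0.30, -0.09 and -0.01 in KO con arrays. They were 0.48, -0.11, -0.05, -0.09 and -0.03 in WT stress arrays, against 0.10, -0.15, 0.28, -0.08 and 0.07 in WT con arrays. KO con arrays were all below 0, and each of the other groups spanned both signs. The basement membrane collagens showed 0.01, 0.09, -0.06, 0.15 and -0.15 in KO stress arrays, against 0.02, -0.08, -0.23, -0.03 and -0.10 in KO con arrays, and 0.35, -0.10, -0.07, 0.08 and -0.08 in WT stress arrays, against 0.0, -0.01, 0.17, -0.01 and 0.04 in WT con arrays. The other collagens gave 0.02, 0.14, -0.08, 0.19 and -0.19 in KO stress arrays, against -0.07, -0.10, -0.26, -0.05 and -0.09 in KO con arrays, and 0.44, -0.12, -0.09, 0.08 and -0.07 in WT stress arrays, against 0.12, -0.06, 0.17, -0.06 and 0.09 in WT con arrays. In each class WT stress replicate 1 was the highest array of all 20 and KO con replicate 3 the lowest. For the meningeal markers WT stress replicate 1 was the highest WT stress array (0.27), where KO stress replicate 2 had 1.25 and WT con replicate 3 had 1.05. The part of these markers in the class means was not tested.

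**Figure D4:**
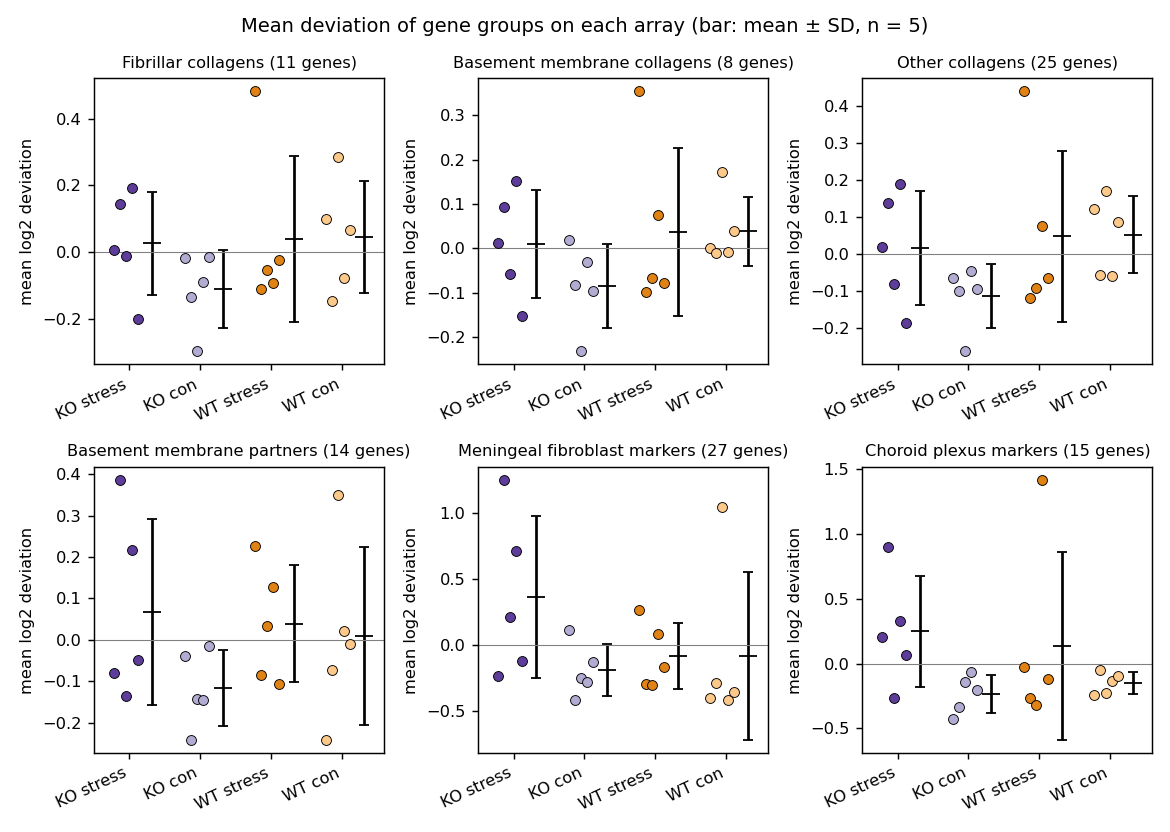
Mean log2 deviation (vertical axes) of the members of 6 gene groups on each array, each member first centred on its own mean over the 20 arrays; points are arrays by group, with the mean ± SD of 5 arrays beside them. In the upper panels, the 3 collagen classes, WT stress replicate 1 is highest and KO con replicate 3 lowest, and in the lower panels the meningeal markers reach 1.25 in KO stress replicate 2 and the choroid plexus markers 1.42 in WT stress replicate 4.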

How the data were processed

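Amygdala RNA of 20 mice was hybridised to 20 Affymetrix Mouse Gene 1.0 ST arrays, 1 mouse per array and 5 per group. The deposited values are log2 signals of 28767 probe sets, which the authors summarised and normalised by ExonRMA in ArrayAssist, variance stabilised and log transformed; the log base was read from their range (4.09 to 14.2). Such a procedure brings array distributions together and compresses differences of dim probe sets. No detection call or probe-level value was used, and the number of arrays limits the precision. All columns of the table were used (0 unused).

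Symbols came from the platform annotation: 21776 probe sets had 1 symbol, 1618 several and 5373 none, and the last 2 kinds were not named. All 44 collagen IDs matched RefSeq (GRCm38.p6), and 0 symbols changed. The 4 group means were fitted with limma 3.58.1 in R 4.3.3 (lmFit, eBayes, 16 residual degrees of freedom), 7 comparisons were formed, and p-values were adjusted by Benjamini-Hochberg over all probe sets. This replaces the unpaired t-test of the methods, which was run as an alternative. Beside the adjusted threshold, collagens were counted by the study's own criterion (unadjusted p under 0.05 and more than a 1.5-fold difference). Single values were tested by an exact two-sided permutation test over 252 splits of 5 against 5 arrays. The fit was tested on simulated data. Figures were drawn in Python 3.11.15 with pandas 2.3.3 and matplotlib 3.10.9.

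The collagens, their partner lists and the marker lists were chosen with earlier results of these data known. Of the marker lists, 2 hold genes that the study listed on these arrays as higher in KO stress vs. con. Any measured collagen could be named. Values of each array are given for collagens with an unadjusted limma p under 0.05 in any comparison and for the type IV pairs, and of partner lists the members with such a p were named, at most 6 per list. The oligodendrocyte precursor, amygdala neuron, endothelial, pericyte and smooth muscle, choroid plexus and meningeal lists were read from the same fit.

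Groups share replicate numbers in the labels. Deviations from the group means of WT stress and WT con arrays with the same number correlated at 0.16 to 0.42 in every pair. These numbers were therefore treated as pairs in an alternative on the WT groups alone, which changed no count of calls. Correlations were also positive in every pair of con KO vs. WT (0.06 to 0.33). They were -0.03 to 0.26 in KO stress vs. con and -0.05 to 0.51 in stress KO vs. WT. For these other comparisons the number was used only as a block over all arrays. Alternatives were centring or quantile normalisation, robust eBayes with a trend, array weights, a mean log2 filter of 6, all probe sets of a gene, the groups compared alone, the replicate number as a block, and leaving out arrays.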

Additional observations from a re-analysis of the deposited data

Results flagged for a closer look

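In 68 groups of 5 values, those of the 14 genes shown by array and of the 3 class means, 10 values lay far from the rest of their group by Dixon's test. This test flags about 1 in 20 independent groups by chance. The groups here share the same 20 arrays, and the class means hold the genes shown, so that they are not independent. WT stress replicate 1 was far above its group for Col11a2 (7.69, the others 7.09 to 7.22), Col4a6 (6.28, the others 5.55 to 5.72), Col22a1 (6.77, the others 6.15 to 6.18) and the mean deviation of the fibrillar collagens (0.48, the others -0.11 to -0.03). KO con replicate 3 was far below its group for Col22a1 (5.89, the others 6.12 to 6.19), Col28a1 (5.70, the others 6.06 to 6.07) and the mean deviation of the other collagens (-0.26, the others -0.10 to -0.05). WT con replicate 1 was far above its group for Col4a3 (6.35, the others 6.01 to 6.10) and Col4a4 (6.43, the others 6.27 to 6.31), and WT con replicate 3 for the mean deviation of the basement membrane collagens (0.17, the others -0.01 to 0.04).

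The KO stress difference minus the WT one was 0.74 for Col1a2 and 1.22 for Col6a3 on the log2 scale, each at an unadjusted limma p under 0.05 and an adjusted p of 1.00. The differences ran in opposite directions, 0.59 in KO and -0.16 in WT arrays for Col1a2, and 0.56 and -0.67 for Col6a3. The limma p exceeded 0.05 in 11 and 13 of the 20 fits that left out an array.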

How the results depend on the processing

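Without adjustment the calls rest on few arrays and on small differences: 5 arrays per group, no collagen past the adjusted threshold, and 4 collagens with a mean log2 value under 6. Of the 13 collagen differences with an unadjusted limma p under 0.05, 0 changed sign in the alternatives run, which the choice by p makes likely. On the higher side 2 of 44 collagens passed in KO stress vs. con (238 of 28767 probe sets). In the interaction 2 did (202 probe sets) and in averaged stress 1 (413). On the lower side 2 passed in con KO vs. WT (479), 2 in stress KO vs. WT (1792) and 4 in averaged KO vs. WT (2111). Of all 308 collagen differences over the 7 comparisons, 148 changed sign in at least 1 alternative. Leaving out 1 array at a time, the number of collagens at the study's criterion was 0 to 1 in WT stress vs. con, 0 to 3 in KO stress vs. con, 0 to 1 in con KO vs. WT, 0 to 1 in stress KO vs. WT, 0 to 3 in the interaction, 0 to 1 in stress averaged over genotypes and 0 in KO vs. WT averaged over conditions. The number above 0 was 8 to 30 in WT stress vs. con, 26 to 41 in KO stress vs. con, 24 to 39 in the interaction and 20 to 40 in averaged stress, and the number below 0 was 36 to 44 in con KO vs. WT, 15 to 33 in stress KO vs. WT and 34 to 43 in averaged KO vs. WT. The medians ran, in the same order of comparisons, from -0.10 to 0.04, 0.03 to 0.11, -0.17 to -0.10, -0.11 to 0.04, 0.01 to 0.15, -0.02 to 0.06 and -0.11 to -0.04.

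At the criterion, 1 collagen stood in WT stress vs. con with array weights or the replicate block, in KO stress vs. con with quantile normalisation, with centring or without WT stress replicate 1 and KO con replicate 3 (chosen after seeing the data), in con KO vs. WT with array weights, the block or without WT con replicate 1 and WT stress replicate 1, in stress KO vs. WT with array weights, and in the interaction with quantile normalisation, the block or the omission chosen after seeing the data. In WT stress vs. con the number above 0 was 9 with array weights, 12 without both arrays of replicate 1 in WT mice and 8 with the later omission. In stress KO vs. WT the number below 0 was 18, 15 and 15 in these fits, and in averaged stress the number above 0 was 19, 21 and 12, and 23 with centring. With the replicate block, the pairing by number over all 20 arrays, the interaction of Col1a2 had a limma p of 0.0704. The cause of these shifts was not tested.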

Other observations

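Col6a1 and Col6a3, chosen here after their values were seen, encode chains of one type VI microfibril, and several arrays had opposite values for them. KO stress replicate 5 had 6.38 for Col6a1 and 8.31 for Col6a3, KO con replicate 5 had 8.54 and 6.18, and WT stress replicate 3 had 8.56 and 6.24 in that order. No group difference of Col6a1 had an unadjusted limma p under 0.05.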
